A study of Mus musculus with 12 samples.

Results

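The genes described here encode the mitochondrial machinery of oxidative phosphorylation. They were selected by gene name from the array's own annotation: names that start with Nduf, Uqcr, Atp5 or Cox followed by a digit from 4 to 8, and the 4 Sdh genes. A gene was kept when at least 1 of the 4 groups had a probe for it well above background on each of its 3 arrays, and the probe with the highest mean signal stood for the gene. Of 82 such genes on the array, carried by 113 probes, 80 were kept, out of 16752 genes tested by the same filter. They comprised 35 subunits of complex I, 1 complex I assembly factor (Ndufaf1), 4 subunits of complex II, 7 of complex III, 16 of complex IV and 15 of ATP synthase. The 16 of complex IV count Cox7a2l, a factor that joins complexes III and IV into supercomplexes. The name rule also took in Atp5s, called Dmac2l in current annotation and known as coupling factor B, and Cox4nb, now called Emc8, a subunit of the endoplasmic reticulum membrane protein complex that is no part of the respiratory chain. The rule used no difference between groups, but a gene could enter through 1 group alone, as Cox4i2 did.

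Peritoneal macrophages came from 10-week-old females of 2 genotypes, C57BL/6 and MyD88-null (MyD88-/-, without the adaptor protein that relays signals from interleukin-1 and from most Toll-like receptors). All mice had received 2 ml of 4% thioglycollate, which draws macrophages into the peritoneum, and cells were collected 96 h later. All cells, controls included, were loaded overnight with cholesterol at 10 µg/ml and then kept with polymyxin B, which binds endotoxin, at 25 µg/ml. The treated cells received apoA-I, which takes up cholesterol exported by macrophages and makes up most of the protein of high-density lipoprotein, at 10 µg/ml for 2 h. Each genotype thus had a control and a treated group, 4 groups of 3 arrays in all. The design text names 3 replicate experiments of 4 samples each and does not say whether the mice differed between them, so the p-values rest on sample-to-sample spread that may be partly technical. For 2 arrays, replicate 2 of the C57BL/6 controls and replicate 2 of the treated MyD88-null group, the free-text description contradicts the title on treatment, and the title was used.

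Oxidative phosphorylation passes electrons from NADH (complex I) and succinate (complex II) through complex III to oxygen at complex IV, and the proton gradient that complexes I, III and IV build drives ATP synthase. Apart from Ndufaf1, Cox7a2l, Atp5s and Cox4nb, the genes described here encode nuclear-encoded subunits of that chain, but not all of them. Some nuclear-encoded subunits, such as Cyc1, lie outside the name rule and are read separately below. The mitochondrial genome encodes further subunits. In macrophages, inflammatory activation is known to shift energy supply from respiration towards glycolysis, and succinate oxidation at complex II is known as a control point of that shift.

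Each value below is the log2 of an array's processed signal minus that array's 75th percentile, so a value of 0 is a signal as bright as that percentile. A level is comparable between arrays for 1 probe and not between probes. The 75th percentile itself ran from 199 to 1408 signal units and rose with the replicate number of the labels, from 199 to 339 on the arrays numbered 1, through 340 to 591 on those numbered 2, to 604 to 1408 on those numbered 3. The arrays numbered 3 were scanned on a day of their own with a later version of the image software. MyD88-null apoA-I replicate 1 stood apart: its 75th percentile was the lowest, and 73.7% of its probes were well above background against 57.6% to 67.1% on the other 11 arrays. All 8 macrophage marker genes were well above background on all 12 arrays. The summed level of the 8 markers of mesothelial cells and fibroblasts, in multiples of the 75th percentile, was 23.0 to 32.6 on arrays numbered 1, 79.0 to 113 on those numbered 2 and 30.7 to 84.7 on those numbered 3; the part of these other cells in the results below was not tested. In bulk RNA, fewer cells of a type and less RNA per cell cannot be told apart. Myd88 averaged 3.31 and 3.96 in the C57BL/6 groups and 1.79 and 2.81 in the MyD88-null groups, with overlap between single arrays (lowest C57BL/6 array 2.96, highest MyD88-null array 3.25), and whether its probe lies in the deleted part was not tested.

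The promoters of these genes are known for a few short motifs, and 5 examples are printed because they carry different sets of them: Dmac2l, the gene with the lowest apoA-I response, 2 complex II subunits, and 1 subunit each of complexes III and IV. RefSeq sequences (assembly GRCm38.p6) were matched for 66 of the 80 genes. Each line gives the 200 bases before the annotated start, 5′ to 3′ on the gene's strand, with capitals where any of 5 motifs matched on either strand: GCATGCGC (the core of the NRF1 motif), CCGGAAG (an ETS motif, as GABP binds), AAGATGGC (YY1), GGGCGG (a GC box) and CCAAT.
Dmac2l (Atp5s on the array), GRCm38.p6 chr12:69724745-69724944, strand +: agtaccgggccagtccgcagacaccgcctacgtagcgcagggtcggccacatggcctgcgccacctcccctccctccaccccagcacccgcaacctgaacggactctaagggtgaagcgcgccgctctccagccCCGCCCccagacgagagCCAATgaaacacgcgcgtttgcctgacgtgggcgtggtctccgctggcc
Sdhb, GRCm38.p6 chr4:140961071-140961270, strand +: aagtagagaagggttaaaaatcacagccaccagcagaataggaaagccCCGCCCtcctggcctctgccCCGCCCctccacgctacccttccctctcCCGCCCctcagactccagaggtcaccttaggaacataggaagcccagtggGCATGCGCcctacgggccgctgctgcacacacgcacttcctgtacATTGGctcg
Sdhd, GRCm38.p6 chr9:50603850-50604049, strand -: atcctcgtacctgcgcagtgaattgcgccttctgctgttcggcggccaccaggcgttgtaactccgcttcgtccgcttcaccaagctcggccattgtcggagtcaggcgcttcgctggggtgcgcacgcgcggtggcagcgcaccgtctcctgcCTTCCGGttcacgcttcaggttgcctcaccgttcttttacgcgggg
Uqcrh, GRCm38.p6 chr4:116075071-116075270, strand -: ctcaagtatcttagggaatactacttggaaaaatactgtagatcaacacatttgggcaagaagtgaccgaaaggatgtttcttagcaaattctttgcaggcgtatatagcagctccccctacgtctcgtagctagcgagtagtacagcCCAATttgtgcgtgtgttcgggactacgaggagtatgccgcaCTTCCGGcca
Cox6a1, GRCm38.p6 chr5:115348959-115349158, strand -: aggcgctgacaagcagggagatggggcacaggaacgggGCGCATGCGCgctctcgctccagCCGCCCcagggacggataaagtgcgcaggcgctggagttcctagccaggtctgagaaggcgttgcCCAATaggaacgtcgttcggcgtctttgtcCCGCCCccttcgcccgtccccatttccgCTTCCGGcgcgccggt
Sdhb has the NRF1 letters starting 54 bases before its start. Cox6a1 has them on both strands, overlapping, at 160 and 162 bases, and an ETS match 16 bases before its start. The ETS letters lie 46 bases before the start of Sdhd and 10 bases before that of Uqcrh, while Dmac2l has a GC box and a CCAAT box and none of the other 3 motifs in the printed stretch.

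Motifs were counted over windows of 300 bases, from 250 before to 50 after the start, on both strands. The NRF1 letters were in 10 of the 66 matched genes (15.2%), against 3.05% of all 27025 genes with a promoter sequence. Those 27025 genes were not limited to the genes well above background on these arrays. The ETS letters were in 17 (25.8% against 9.93%) and the YY1 letters in 10 (15.2% against 3.19%). The GC box and CCAAT, in 28 genes each, were about as common among the matched genes (42.4% each) as in all genes with a promoter sequence (38.2% and 41.1%). NRF1 and ETS letters occurred together in 5 genes, namely Atp5k, Atp5l, Cox6a1, Sdhb and Uqcr (7.58% against 0.618%). These shares are descriptions of letters in a window, not of binding. The median log2 difference with apoA-I, averaged over genotypes, was 0.05 in genes with the ETS letters and -0.0076 in those without, 0.05 and -0.0011 for NRF1, and -0.02 and 0.03 for YY1.

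Nearly all differences of the oxidative phosphorylation genes, with apoA-I and between genotypes, were small. None of the 80 passed an adjusted p of 0.05 by limma, with Benjamini-Hochberg adjustment over all 16752 genes, in any of 7 comparisons. In the C57BL/6 response to apoA-I, 0.83% of all genes passed; at an unadjusted p under 0.05, 1 of the 80 genes was below the threshold against 7.41% of all genes. For the MyD88-null response the share of all genes that passed was 1.14%, and unadjusted again 1 of the 80 against 8.66%. In the response averaged over the genotypes 3.15% of all genes passed, and unadjusted 2 of the 80 against 13.2%. The difference between the 2 responses gave 0% adjusted, with 0 of the 80 against 1.17% unadjusted. The comparison of MyD88-null with C57BL/6 cells gave 0.0955% of all genes without apoA-I, 0.0657% with apoA-I and 0.263% averaged over treatments, and unadjusted 0 of the 80 in each, against 3.51%, 3.91% and 6.92%. The comparisons share arrays, since each control group serves in several of them.

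With the replicate number as a block, which the design's 3 replicate experiments call for, 1 of the 80 genes passed in the MyD88-null response, against 4.07% of all genes, and 1 in the averaged response, against 11.5%. That gene was Atp5s both times. With the slide as a random block 2 passed in the averaged response, Atp5s and Cox4nb, neither of which is a subunit of a respiratory complex as its protein is known today.

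In C57BL/6 cells the apoA-I difference of the 80 genes had a median of 0.05 and an interquartile range of -0.05 to 0.10, against -0.24 to 0.24 for all genes. In MyD88-null cells the median was 0.0035 with an interquartile range of -0.14 to 0.09. The median in C57BL/6 cells was -0.12 with quantile normalization and -0.039 with the deposited value table, so that its sign depends on the scaling; the count of genes above 0 went from 49 of 80 to 13 and 30. In MyD88-null cells it was -0.076 with quantile normalization and -0.080 with normexp background correction. Within the slides that held both treatments, the medians were -0.082 and -0.049 in C57BL/6 cells and -0.045 and 0.053 in MyD88-null cells. The value of -0.045 set MyD88-null apoA-I replicate 1 against MyD88-null control replicate 2, so it crosses replicate numbers. For the averaged response, the 95% interval lay within a 2-fold change in either direction for 76 of the 80 genes, against 57.5% of all genes, and within 1.5-fold for 50. The 4 exceptions to the first bound were Cox4i2, Cox6b2, Cox7c and Ndufa2. Markers of some other cells also moved with treatment. In C57BL/6 cells the summed level of 5 mast cell markers was 4.28 to 5.42 without and 5.64 to 6.24 with apoA-I. That of 2 dendritic cell markers was 0.198 to 0.552 and 0.580 to 1.15, and the sums of the other cell types overlapped. In MyD88-null cells both overlapped, at 2.21 to 4.07 and 2.25 to 3.96 for mast cells and 0.0882 to 0.508 and 0.383 to 1.01 for dendritic cells. The 1 NK cell marker did not overlap there, at 0.0439 to 0.0621 and 0.0703 to 0.231. Their part in these differences was not tested.

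**Figure D1:**
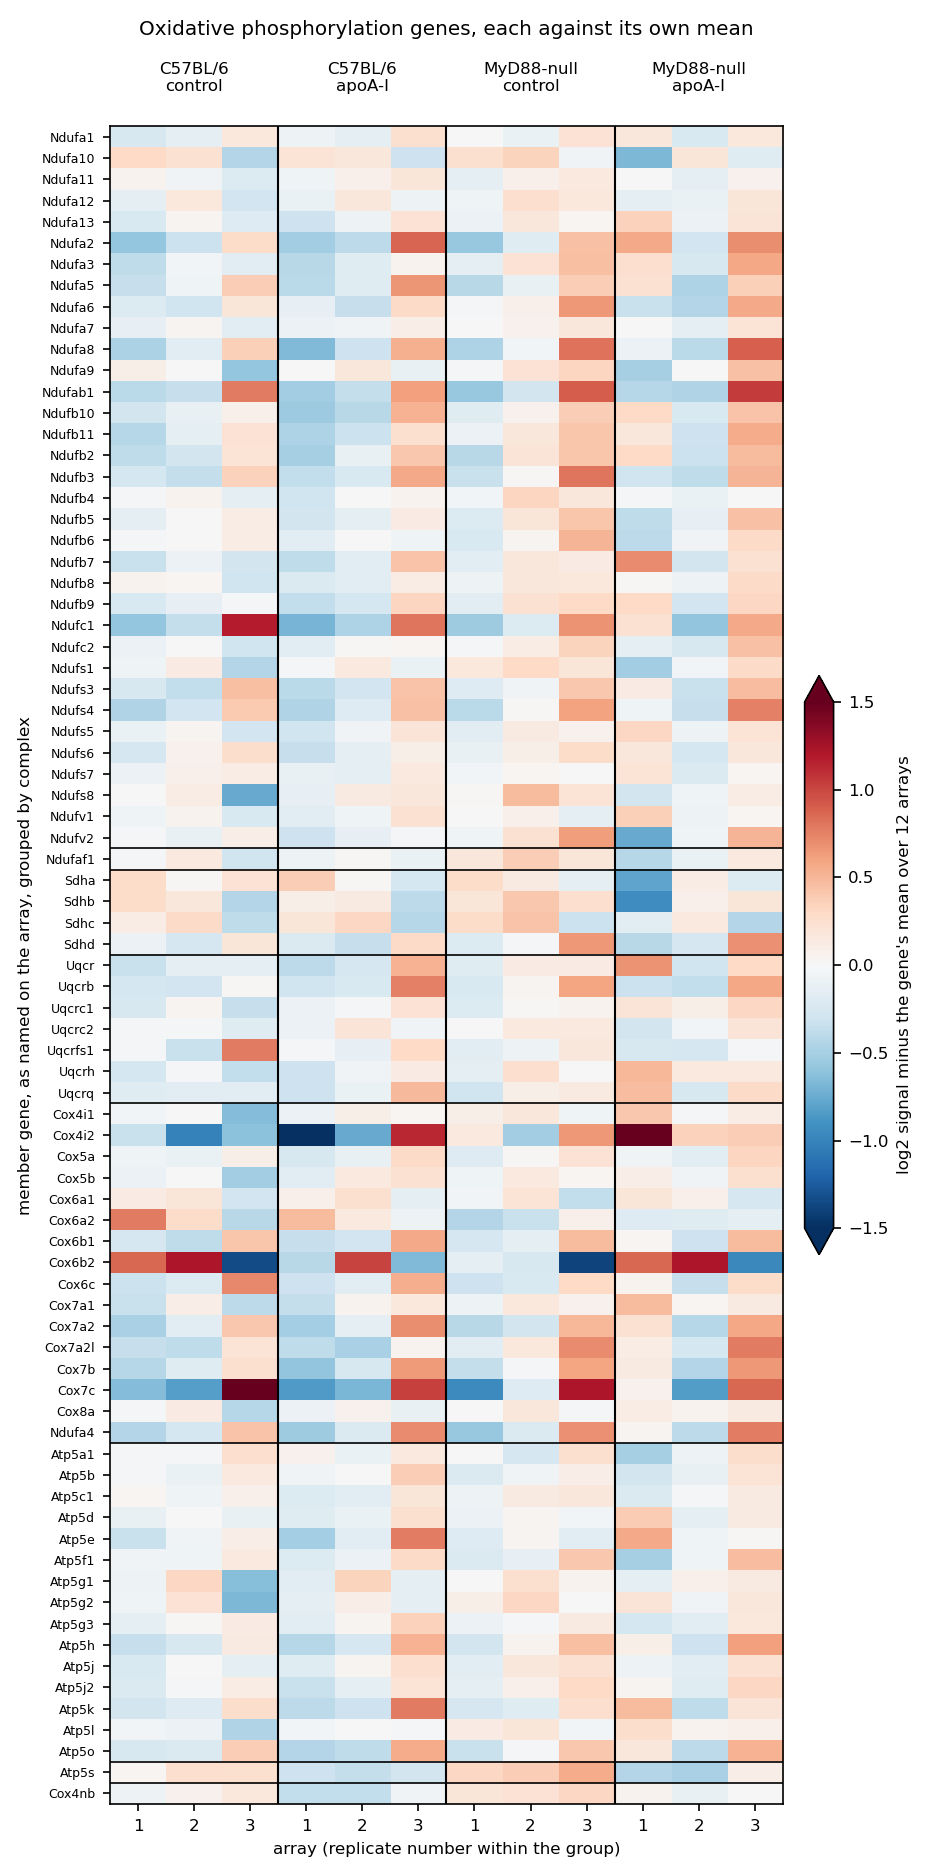
Each row is 1 of 79 of the genes, ordered by complex, and each column 1 of the 12 arrays, ordered by group; colour is the log2 deviation from the gene's mean over the 12 arrays, limited at 1.5 in either direction. Wide deviations lie in single genes (Cox4i2, Cox6b2, Cox7c), in the columns of replicate 3 and in MyD88-null apoA-I replicate 1, which holds the highest single deviation at 2.27.

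**Figure D2:**
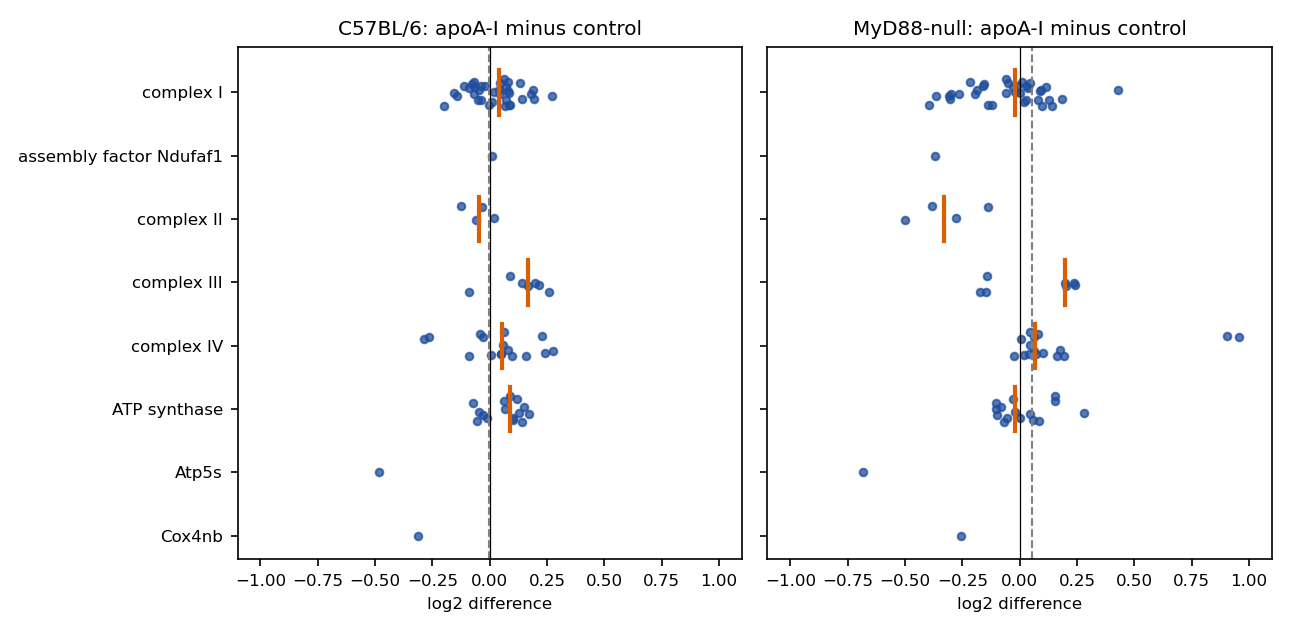
The horizontal axis is the log2 difference between apoA-I and control, in C57BL/6 cells (left) and MyD88-null cells (right), with a row for each complex; points are genes, orange bars the median of a complex and the dashed line the median of all genes. Complex II lies lowest of the complexes in MyD88-null cells, with a median of -0.33, and Atp5s is the lowest point in both panels.

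Complex I, which oxidises NADH, was represented by 35 subunits, 7 of them core subunits that carry the flavin and iron-sulphur clusters and 28 accessory subunits. In C57BL/6 cells the median apoA-I difference was 0.038 (20 of 35 above 0), turning to -0.13 with quantile normalization and -0.057 with the deposited value table, and in MyD88-null cells it was -0.020 (16 of 35 above 0), with -0.11 (11 of 35) after quantile normalization and -0.11 (7 of 35) after normexp correction. The 35 differences ran from -0.20 to 0.27 in C57BL/6 cells and from -0.39 to 0.43 in MyD88-null cells. Ndufs8, a core subunit with iron-sulphur clusters, read 1.43, 1.54 and 0.67 on the C57BL/6 control arrays and 1.30, 1.56 and 1.60 with apoA-I. The MyD88-null arrays read 1.44, 1.90 and 1.64 without and 1.15, 1.36 and 1.54 with apoA-I. C57BL/6 control replicate 3 was the low array, and the groups overlapped in both genotypes. The C57BL/6 difference of 0.27, among the 5 highest, was 0.0026 without that array and -0.057 with the slide as a fixed block, and the difference between the genotypes' responses was -0.58, the lowest of the 80 genes.

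Ndufv2, another core subunit, was among the lowest in the averaged response at -0.25. Its levels were 2.82, 2.72 and 2.93 in C57BL/6 controls, 2.52, 2.71 and 2.81 with apoA-I, 2.76, 3.06 and 3.45 in MyD88-null controls, with 2.08, 2.76 and 3.34 in their treated counterparts. The lowest value came from MyD88-null apoA-I replicate 1, and the groups overlapped. Without that array the MyD88-null difference was -0.04, and that of the accessory subunit Ndufa10 went from -0.39 to -0.17. Ndufs1, the largest core subunit, was at -0.44 in the difference between the responses, and at -0.23 without that array. Ndufa2, a small accessory subunit with a thioredoxin-like fold, was at 0.43 in MyD88-null cells and 0.31 averaged. Ndufc1 was at -0.20 in C57BL/6 cells, where its array values spread widely: 3.36, 3.58 and 5.12 without and 3.24, 3.48 and 4.74 with apoA-I, the array numbered 3 being far above the other 2 in each group.

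Ndufaf1, an assembly factor that helps build the membrane arm of complex I, read 1.25, 1.45 and 1.26 in MyD88-null controls and 0.65, 0.98 and 1.22 with apoA-I. All 3 treated arrays lay below all 3 controls, for a difference of -0.37, which was -0.22 without MyD88-null apoA-I replicate 1. In C57BL/6 cells, at 1.04, 1.22 and 0.78 without and 1.00, 1.09 and 0.98 with apoA-I, the groups overlapped and the difference was 0.01.

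Complex II, succinate dehydrogenase, belongs to both the respiratory chain and the citric acid cycle. Sdha, the subunit that oxidises succinate, read 2.28, 2.03 and 2.22 in C57BL/6 controls, 2.38, 2.03 and 1.74 with apoA-I, 2.29, 2.14 and 1.86 in MyD88-null controls, with 1.22, 2.12 and 1.80 in their treated counterparts. Sdhb, the iron-sulphur subunit whose promoter is printed above, read 4.36, 4.25 and 3.64, then 4.17, 4.22 and 3.69, then 4.26, 4.49 and 4.34, and 3.15, 4.16 and 4.26 in the same order of groups. In both genes MyD88-null apoA-I replicate 1 was the lowest of the 12 arrays, and the other 2 arrays of its group lay close to or within the control range. A dimmer Sdha probe read 1.95, 1.91 and 1.93 in MyD88-null controls and 1.325, 1.81 and 1.77 with apoA-I, without overlap. Its C57BL/6 groups overlapped.

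The membrane anchors of complex II bind ubiquinone. Sdhc read 3.61, 3.77 and 3.02 in MyD88-null controls and 3.18, 3.48 and 2.89 with apoA-I, and Sdhd 4.29, 4.48 and 5.15 against 4.08, 4.25 and 5.18. The groups overlapped in both. All 4 Sdh genes were below 0 in the MyD88-null difference, with a median of -0.33, and in the averaged difference Sdha was at -0.25, Sdhb at -0.28, Sdhc at -0.13 and Sdhd at -0.09. No Sdh gene passed the test. Without MyD88-null apoA-I replicate 1 the MyD88-null median of complex II was -0.14, with Sdha at -0.14 and Sdhb at -0.15, and 1 of the 4 was above 0. In C57BL/6 cells the median was -0.048 with 1 of 4 above 0. The complex II medians were below 0 in both genotypes under all 3 other scalings as well, from -0.17 to -0.099 in C57BL/6 cells and from -0.36 to -0.24 in MyD88-null cells.

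Complex III, which passes electrons from ubiquinol to cytochrome c, had the highest median of the complexes, 0.17 in C57BL/6 cells (6 of 7 genes above 0, but -0.065 with quantile normalization) and 0.20 in MyD88-null cells (4 of 7). Uqcrc1, one of its core subunits, read 5.24, 5.52 and 5.14 in C57BL/6 controls, 5.39, 5.46 and 5.70 with apoA-I, 5.28, 5.51 and 5.54 in MyD88-null controls and 5.68, 5.58 and 5.79 with apoA-I. The MyD88-null groups did not overlap, at a difference of 0.24, while the C57BL/6 groups did. On a dimmer Uqcrc1 probe the MyD88-null arrays read 4.53, 4.56 and 4.36 without and 4.69, 4.63 and 4.45 with apoA-I, and overlapped. The averaged difference was 0.23 on the brighter probe and 0.07 on the dimmer one. Uqcrb, a small subunit, was at 0.26 in C57BL/6 cells. Without MyD88-null apoA-I replicate 1 the MyD88-null median was -0.024.

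Complex IV, cytochrome c oxidase, has tissue isoforms of several subunits, and its 16 genes had a median apoA-I difference of 0.055 in C57BL/6 cells (11 above 0), turning to -0.085 with quantile normalization and -0.0092 with the deposited value table, and of 0.065 in MyD88-null cells (15 above 0). With normexp correction the MyD88-null median was 0.0034 (8 above 0), with quantile normalization 0.032 (9 above 0), and without the arrays numbered 3 and MyD88-null apoA-I replicate 1 it was -0.075 (3 above 0), with 1 treated array left. For the ubiquitous forms, averaged over genotypes, the differences were 0.17 for Cox4i1, 0.06 for Cox6a1, 0.05 for Cox6b1, 0.14 for Cox7a2 and 0.05 for Cox8a, and 0.13 for Ndufa4, named for complex I and now known as a subunit of complex IV. Cox4i1 turned to -0.02 in C57BL/6 cells with quantile normalization, from 0.24, and was at 0.033 without C57BL/6 control replicate 3. Cox5b, a zinc-binding subunit, was the highest of the 80 genes in C57BL/6 cells at 0.28. Its arrays read 6.09, 6.19 and 5.66 without and 6.03, 6.33 and 6.41 with apoA-I, and the groups overlapped with C57BL/6 control replicate 3 lowest; without that array the difference was 0.12.

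Some isoforms best known from other tissues scattered widely between arrays. Cox4i2, the isoform of lung and of hypoxic cells, read -4.77, -5.45 and -5.05 in C57BL/6 controls and -6.09, -5.19 and -3.30 with apoA-I, and was well above background on 1 of 3 arrays in each group. The MyD88-null arrays read -4.28, -4.96 and -3.78 without and -2.16, -4.08 and -4.06 with apoA-I, well above background on 2 and 3 of 3 arrays. Its treated and control arrays overlapped in both genotypes. The other 79 genes were well above background on all 12 arrays. The MyD88-null difference of Cox4i2, 0.91, was 0.27 without MyD88-null apoA-I replicate 1, its highest array.

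Cox6b2, the testis isoform, read -0.51, -0.15 and -2.71, then -1.78, -0.35 and -2.03 in C57BL/6 cells without and with apoA-I. The MyD88-null arrays read -1.49, -1.60 and -2.75 without and -0.50, -0.15 and -2.33 with apoA-I. Arrays numbered 3 were the lowest of each group, and the groups overlapped. Its difference was -0.26 in C57BL/6 cells and 0.96 in MyD88-null cells, which made it the highest in the difference of the responses at 1.22, with an adjusted p by limma of 1.00.

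The heart and muscle isoforms Cox6a2 and Cox7a1 were above background on all 12 arrays. Cox6a2 read 1.84, 1.34 and 0.65 in C57BL/6 controls, 1.54, 1.21 and 0.99 with apoA-I, 0.62, 0.73 and 1.14 in MyD88-null controls and 0.87, 0.88 and 0.93 with apoA-I. Its averaged apoA-I difference was 0.02, and that of Cox7a1 0.16. Among the muscle markers Acta1 and Actc1 were above background, at a summed level of 0.404 to 1.69 of the 75th percentile, and Ckm and Myh4 were not; the part of muscle RNA was not tested. The probes of Cox8b and Cox8c, also known from muscle and testis, were well above background on 1 and 2 of the 12 arrays and were not tested.

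ATP synthase, which makes ATP from the proton gradient, was represented by 15 subunits with a median apoA-I difference of 0.089 in C57BL/6 cells (10 of 15 above 0), which turned to -0.13 with quantile normalization and -0.039 with the deposited value table, and of -0.022 in MyD88-null cells (7 of 15), with -0.099 (3 of 15) after quantile normalization and -0.094 (4 of 15) after normexp correction. The 15 differences ran from -0.073 to 0.17 in C57BL/6 cells and from -0.11 to 0.28 in MyD88-null cells, the narrowest ranges of the complexes with more than 10 genes. The 3 genes for the same c-ring subunit, Atp5g1, Atp5g2 and Atp5g3, had averaged differences of 0.04, 0.04 and -0.02. Atp5e, the epsilon subunit of the catalytic part, was at 0.28 in MyD88-null cells and 0.20 averaged; without MyD88-null apoA-I replicate 1 these were 0.083 and 0.11. Atp5l, the g subunit of the membrane part, was at 0.17 in C57BL/6 cells with no overlap between the groups, and at 0.040 without C57BL/6 control replicate 3.

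Groups without overlap were few. In C57BL/6 cells the 3 treated arrays lay all above or all below the 3 controls in 2 of the 80 genes (Atp5l and Atp5s), against 13.1% of all genes, and in MyD88-null cells in 4 (Uqcrc1, Atp5s, Cox4nb and Ndufaf1), against 11.6%. Both counts were below the background share.

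Atp5s had the lowest apoA-I difference of the 80 genes in both genotypes. Its protein is known as coupling factor B, a small factor that associates with ATP synthase and is not one of its core subunits. Its brighter probe, at chr12:67685525-67685584 of mm7, read -1.26, -1.03 and -1.05 in C57BL/6 controls and -1.59, -1.64 and -1.56 with apoA-I. The MyD88-null arrays read -0.98, -0.92 and -0.72 without and -1.72, -1.77 and -1.18 with apoA-I. Treated and control arrays did not overlap in either genotype, and the treated array was lower in 6 of 6 pairs with the same replicate number. The difference was -0.48 (SE 0.200) in C57BL/6 cells, -0.68 (SE 0.200) in MyD88-null cells and -0.58 averaged (SE 0.142, 95% interval -0.90 to -0.27).

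The adjusted p for Atp5s by limma was 0.595 in C57BL/6 cells, 0.232 in MyD88-null cells and 0.0587 averaged, and with the replicate block 0.0458 in MyD88-null cells and 0.0118 averaged. Within slides the difference was -0.33 and -0.61 in C57BL/6 cells and -0.46 and -0.80 in MyD88-null cells. The value of -0.80 set MyD88-null apoA-I replicate 1, the array that stood apart, against MyD88-null control replicate 2. Leaving out MyD88-null apoA-I replicate 3 brought the averaged adjusted p by limma to 0.0213. Leaving out any other single array raised it, to between 0.0935 and 0.161. Without the 2 arrays with conflicting descriptions it was 0.324. With treatment taken from the descriptions the averaged difference was -0.33 (adjusted p = 0.973), and with normexp background correction it was also -0.33 (adjusted p = 0.371). A dimmer probe of the gene, at chr12:67682705-67682764, read -3.53, -3.61 and -3.16 in C57BL/6 controls and -3.34, -3.87 and -3.62 with apoA-I, and -3.07, -3.37 and -3.30 against -2.51, -3.82 and -3.46 in MyD88-null cells. The groups overlapped there, and its averaged difference was -0.10 (adjusted p = 0.917). The probes are 60 bases each, and their exons were not identified here.

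Cox4nb (Emc8) read 1.68, 1.81 and 1.90 in C57BL/6 controls and 1.38, 1.37 and 1.69 with apoA-I. The MyD88-null arrays read 1.93, 1.96 and 2.05 without and 1.80, 1.64 and 1.74 with apoA-I. The MyD88-null groups did not overlap, the C57BL/6 groups overlapped by 1 array, and the treated array was lower in 6 of 6 pairs. The averaged difference was -0.29 (SE 0.120, adjusted p = 0.335, and 0.0836 with the replicate block), and it was -0.57 (adjusted p = 0.415) on its dimmer probe. Of the 21 genes with several kept probes, 14 had all probes on the same side of 0 in the averaged apoA-I difference and 17 in the averaged genotype difference.

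**Figure D3:**
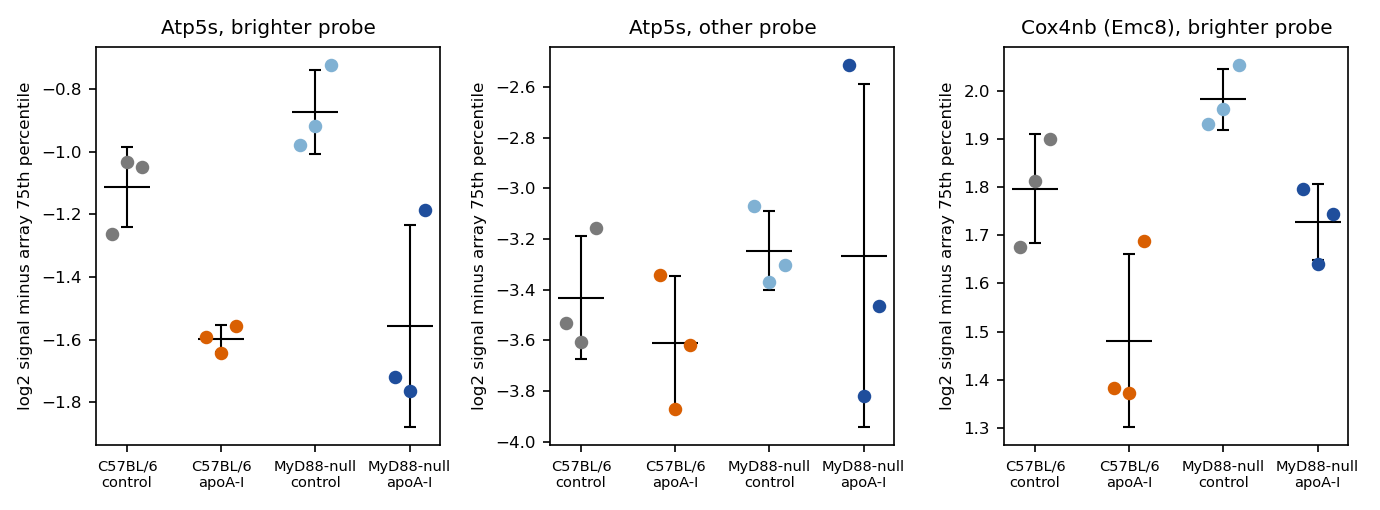
The vertical axes give log2 signal minus the array's 75th percentile for the brighter Atp5s probe, the dimmer Atp5s probe and the brighter Cox4nb probe; points are arrays, bars the group mean and whiskers the SD of 3 arrays. For the brighter Atp5s probe treated points lie below control points in both genotypes (-1.64 to -1.56 against -1.26 to -1.03 in C57BL/6 cells), and for the dimmer probe they overlap.

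**Figure D4:**
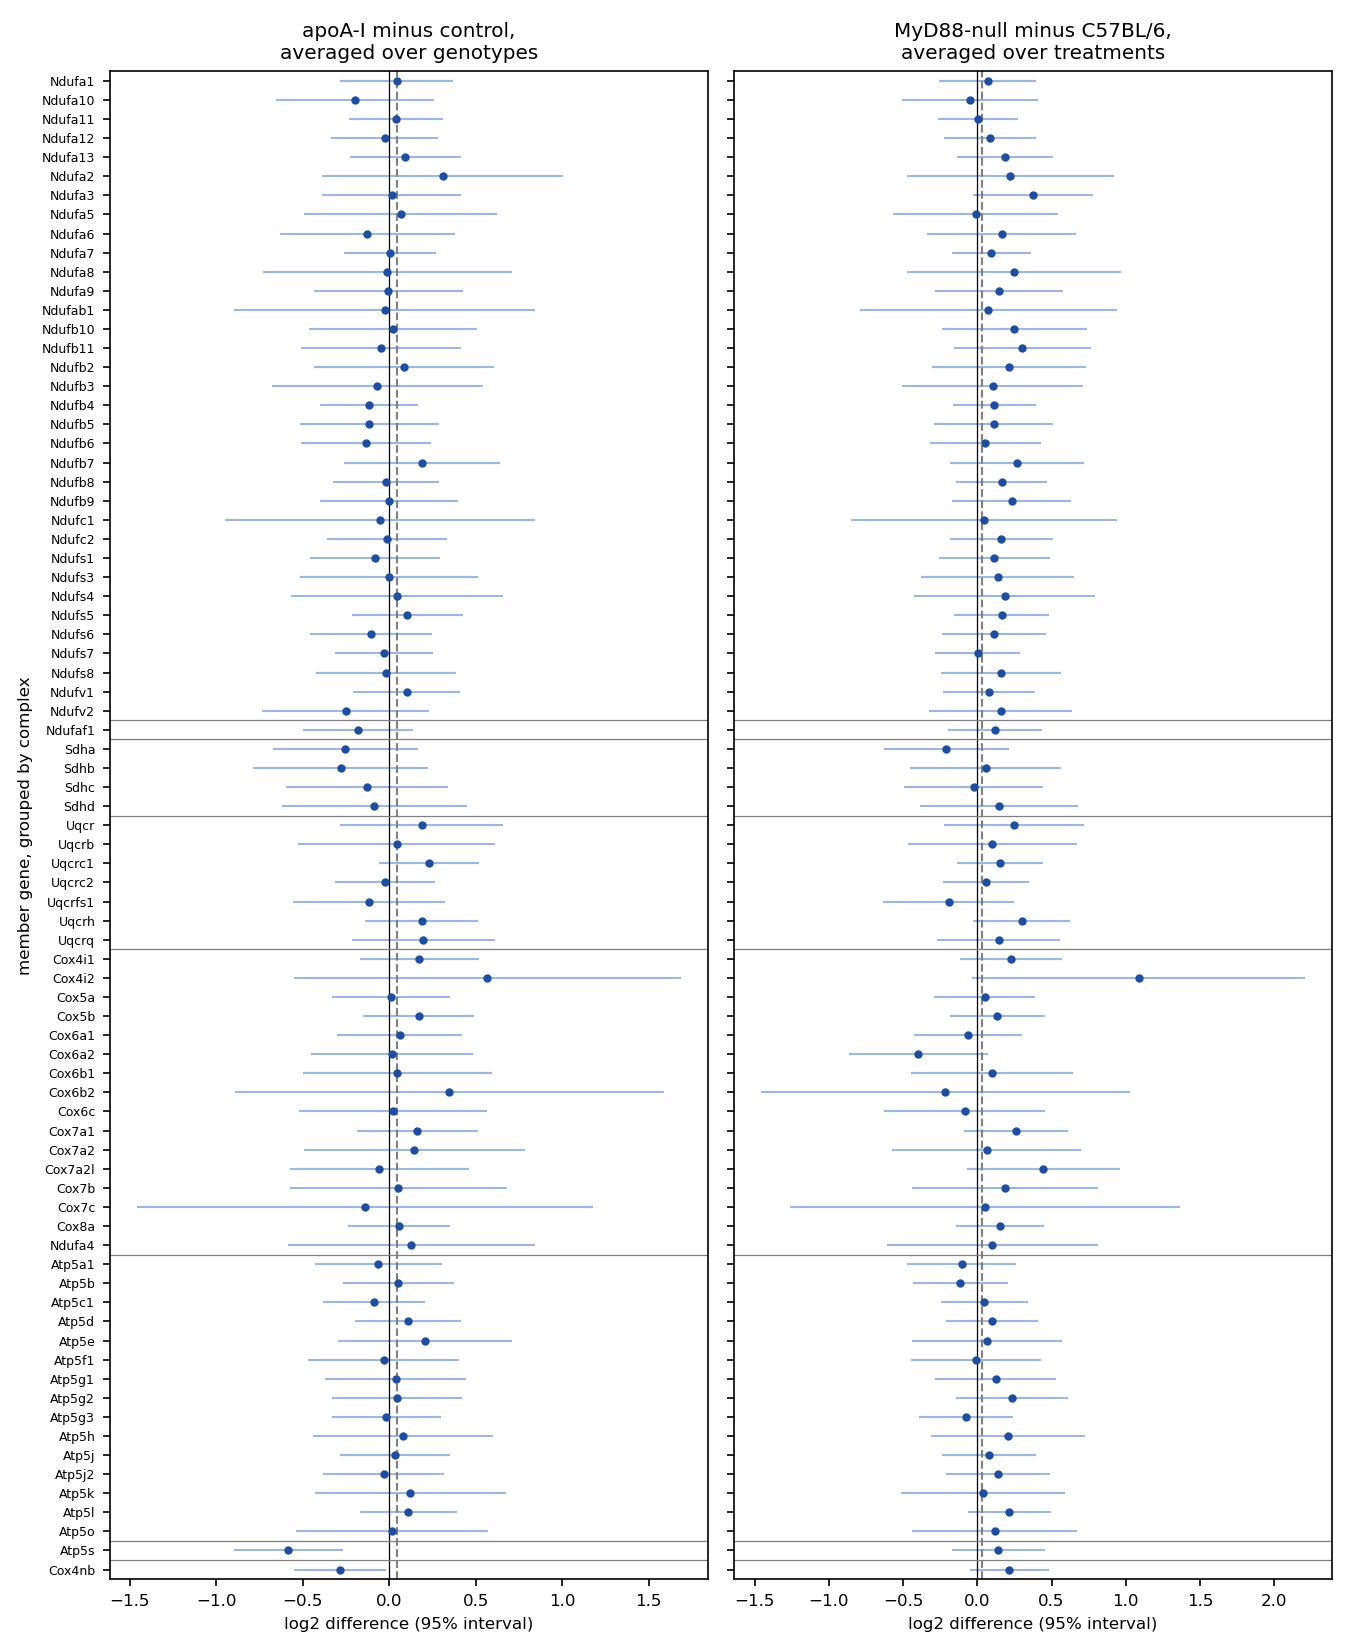
Points are the log2 differences of 79 of the genes, apoA-I against control averaged over genotypes and MyD88-null against C57BL/6 averaged over treatments, with 95% intervals as lines and the median of all genes dashed. In the apoA-I panel the intervals of Atp5s and Cox4nb leave out 0, and in both panels those of Cox4i2, Cox6b2 and Cox7c pass the bounds of a 2-fold difference.

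Between the genotypes, most oxidative phosphorylation genes read slightly higher in MyD88-null cells, and none passed the test. Averaged over treatments, 66 of the 80 genes were above 0 with a median of 0.11, against 54.7% of all genes and a median of 0.03. The median was also above 0 with quantile normalization (0.077, 62 genes above 0), normexp correction (0.12, 67 genes) and the deposited value table (0.038, 51 genes), and was 0.0034 (42 genes) with the slide as a fixed block. It was 0.071 (56 genes) without the arrays numbered 3, and 0.041 (57 genes) without those and MyD88-null apoA-I replicate 1. Markers of other cells moved with genotype too: the summed level of 5 B cell markers was 7.57 to 8.88 on the C57BL/6 arrays and 4.12 to 7.38 on the MyD88-null arrays, and that of 5 mast cell markers 4.28 to 6.24 and 2.21 to 4.07, both without overlap. Their part in the genotype differences was not tested. Within slides the median genotype difference of the 80 genes was 0.041 for control cells on the 1 slide that held both genotypes. For cells with apoA-I it was -0.077 and 0.019 on 2 slides. By complex, 32 of 35 complex I subunits were above 0 (median 0.14), 2 of 4 in complex II (0.015), 6 of 7 in complex III (0.15), 12 of 16 in complex IV (0.099) and 11 of 15 in ATP synthase (0.079). Under the other scalings the medians of complexes I, III and IV were above 0 too, while that of complex II was below 0 in all 3 and that of ATP synthase was -0.025 with the deposited value table. The 95% interval lay within a 2-fold difference for 77 of the 80 genes, with Cox4i2, Cox6b2 and Cox7c as exceptions, against 62.6% of all genes.

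Cox7a2l, a factor that joins complexes III and IV into supercomplexes, read 3.81, 3.78 and 4.36 in C57BL/6 controls and 3.99, 4.32 and 4.87 in those of MyD88-null cells. With apoA-I it read 3.78, 3.68 and 4.21 in C57BL/6 and 4.27, 3.90 and 4.94 in MyD88-null cells. The MyD88-null array was higher in 6 of 6 pairs of the same number and treatment, while the groups as a whole overlapped. The averaged difference was 0.44 (SE 0.233, adjusted p by limma 0.820).

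Uqcrh, the hinge subunit of complex III whose promoter is printed above, read 6.68, 6.92 and 6.57 in C57BL/6 controls, 6.80, 7.19 and 6.93 in MyD88-null controls, 6.63, 6.88 and 7.07 in C57BL/6 cells with apoA-I and 7.44, 7.09 and 7.09 in treated MyD88-null cells. The groups with apoA-I did not overlap and the controls did. Its averaged difference was 0.30 (SE 0.147, adjusted p = 0.789). Ndufa3 was at 0.37 and Ndufb11 at 0.30, both accessory subunits of complex I. Cox4i2 was highest at 1.09 (SE 0.504, adjusted p = 0.743), at the low signal described above. It had passed the filter only through treated MyD88-null cells, so this rank is not independent of the filter. At the lower end were Cox6a2 at -0.40, Cox6b2 at -0.22, Sdha at -0.21 and Uqcrfs1, the Rieske iron-sulphur protein of complex III, at -0.19.

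Genes whose genotype groups did not overlap numbered 5 of 80 without apoA-I, all higher in MyD88-null cells (Atp5s, Cox4nb, Ndufaf1, Ndufs1 and Uqcrc2), against 10.3% of all genes. With apoA-I there were 3 (Atp5l and Uqcrh higher, Cox6a2 lower), against 5.62% of all genes.

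Many of these genes read differently on the arrays numbered 3, as did a similar share of all genes. On those arrays, compared with the mean of numbers 1 and 2 of the same group, 44 of the 80 genes were higher in all 4 groups and 5 were lower in all 4, together 61.25%, against 59.5% of all genes (4306 higher and 5663 lower). The median difference was 0.28 over the 80 genes and -0.09 over all genes. Without regard to sign, the median was 0.31 over the 80 genes and 0.48 over all genes. Complex IV was at 0.46, complex I at 0.30, ATP synthase at 0.29, complex III at 0.28 and complex II at -0.15.

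The widest such gap was in Cox7c, a small complex IV subunit, at 1.84. It read 0.54, 0.37 and 3.01 in C57BL/6 controls, 0.34, 0.50 and 2.21 with apoA-I, 0.23, 0.99 and 2.40 in MyD88-null controls and 1.25, 0.35 and 2.04 with apoA-I, so that array 3 was the highest in each group. Ndufab1, the mitochondrial acyl carrier protein in complex I, was 1.25 higher, reading 2.76, 2.82 and 3.94 in C57BL/6 controls, and Ndufc1 was 1.21 higher. Cox6b2 was lower on these arrays by a difference of -1.64. The parts of replicate experiment, slide, scan day, software version and signal brightness in this pattern cannot be told apart. The arrays numbered 3 differ from the others in all of them. The summed level of 5 T cell markers was 0.731 to 1.09 on these arrays and 1.13 to 2.61 on the others, and that of 2 muscle markers was 0.404 to 0.745 and 0.902 to 1.69. The part of these cells was not tested. Leaving out these 4 arrays, the median apoA-I difference of the 80 genes was -0.059 in C57BL/6 cells (24 above 0) and -0.029 in MyD88-null cells (34 above 0). Without them and without MyD88-null apoA-I replicate 1, the averaged median was -0.099, with 71 of 80 genes below 0, against -0.021 for all genes; this leaves 1 array in the treated MyD88-null group, so that its part of the average rests on a single sample.

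**Figure D5:**
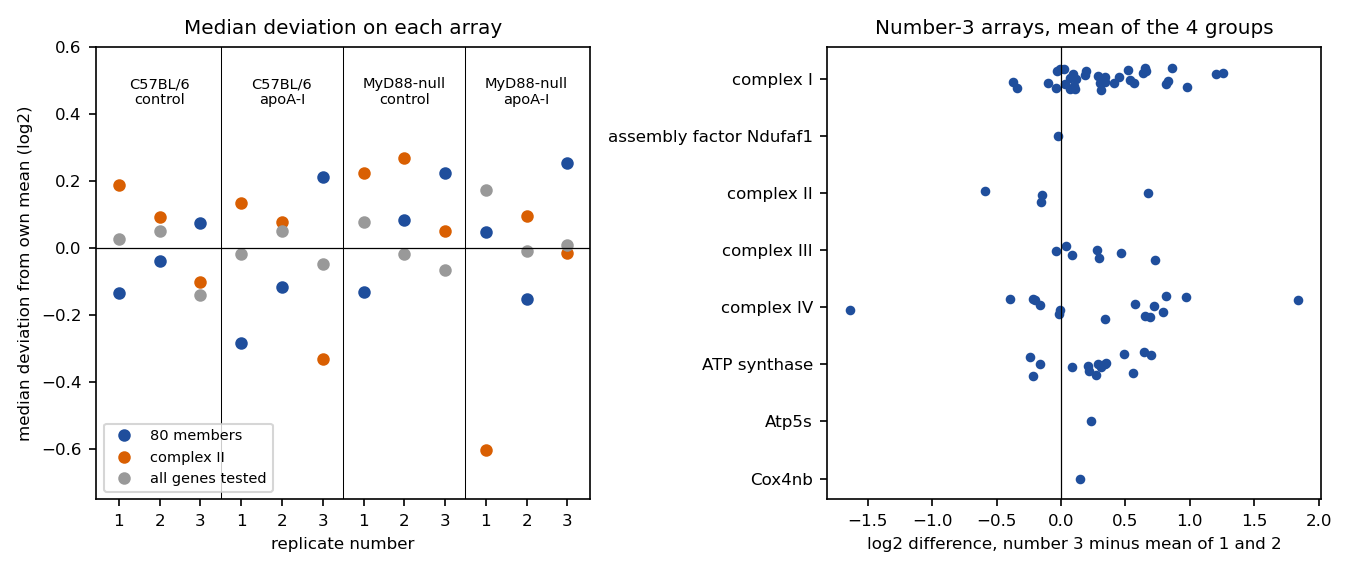
The left panel gives, for each array, the median log2 deviation from the gene mean for the 80 genes, the complex II genes and all genes; the right panel gives for each gene, by complex, the mean of arrays numbered 3 minus the mean of numbers 1 and 2. Most genes lie above 0 on the right, with Cox7c at 1.84 highest and Cox6b2 at -1.64 lowest.

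Genes that serve the same pathway but lie outside the name rule were read for comparison. None of 7 further electron carriers and subunits, 10 further oxidative phosphorylation genes under other names, 23 measured assembly factors of 25 listed or 18 genes of the citric acid cycle and pyruvate dehydrogenase passed in any comparison by limma, with or without the replicate block. In the averaged apoA-I response 6 of the 23 assembly factors had an unadjusted p under 0.05, against 13.2% of all genes, all with lower values: Bcs1l, which inserts the Rieske protein into complex III, at -0.28, Foxred1 at -0.34, Tmem126b at -0.52, Acad9 at -0.32, Sdhaf1, which inserts iron-sulphur clusters into Sdhb, at -0.33 and Atpaf1, which assembles the F1 part of ATP synthase, at -0.42. These 23 do not hold all assembly factors measured. The 10 genes under other names include the complex I assembly factors Ndufaf2 to Ndufaf7. Of these 10 genes 0 were under that threshold, and 5 were above 0. Ndufaf1, at -0.18, was not under it either.

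Among 15 regulators of mitochondrial biogenesis, 2 passed in the averaged apoA-I response, 1 in each direction, against 3.15% of all genes. With the replicate block 5 passed, 1 higher and 4 lower, against 11.5%. Gabpb1, the beta subunit of the ETS factor GABP, read -2.47, -2.17 and -2.59 in C57BL/6 controls and -1.18, -0.24 and -0.99 with apoA-I, and -2.91, -2.27 and -2.58 against -1.82, -0.45 and -1.46 in MyD88-null cells. All treated arrays lay above all controls, and it rose 2.78-fold (log2 difference 1.48, SE 0.263, adjusted p = 0.0137). Gabpa, which encodes the DNA-binding subunit, was at 0.11, Nrf1 at 0.05 and Tfam at 0.28, and none of these passed. Polrmt, the mitochondrial RNA polymerase, read 0.77, 0.76 and 0.78 in C57BL/6 controls and 0.20, 0.04 and 0.23 with apoA-I, and 0.87, 0.94 and 0.78 against -0.15, 0.20 and 0.38 in MyD88-null cells. It fell by 0.66 on the log2 scale (SE 0.129, adjusted p = 0.0215) with no overlap. Ppargc1b, a coactivator of mitochondrial genes, was at -0.96 with an adjusted p of 0.0661, and 0.0227 with the replicate block. The others that passed with the block alone were Tfb2m, a mitochondrial transcription factor, at -0.45 (adjusted p = 0.746, block 0.0197) and Sirt3, a mitochondrial deacylase, at -0.42 (adjusted p = 0.163, block 0.0391).

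Acod1, the enzyme that makes itaconate, an inhibitor of complex II, was the 1 measured gene of the 4 listed for itaconate and succinate handling. It read 5.51, 4.51 and 4.42 in C57BL/6 controls and 8.58, 8.41 and 8.03 with apoA-I, and 0.04, 0.37 and 2.02 against 8.13, 8.08 and 7.58 in MyD88-null cells. It rose 11.5-fold in C57BL/6 cells (log2 difference 3.53, adjusted p by limma 0.00683) and 139-fold in MyD88-null cells (7.12, adjusted p = 8.2e-05), and the difference of the responses did not pass (adjusted p = 0.653). Its control level was lower in MyD88-null cells by a log2 difference of -4.00 (adjusted p = 0.0163). Of 10 mitochondrial carriers and uncoupling genes none passed; Hk2, the hexokinase that docks on mitochondria, was at 0.74 with an adjusted p of 0.0702, and 0.0103 with the replicate block.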

How the data were processed

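RNA was measured on 12 one-colour Agilent arrays (Cy3, 500 ng of total RNA). The deposited scanner files hold, per the file headers, a processed signal intensity, made by background subtraction in Agilent Feature Extraction (version 9.5, from the submitters' processing notes), and flags (0 or 1) for signal well above background, saturation and outliers. The deposited value table holds log10 values by the authors that followed log10 of the processed signal on each array (r from 0.993 to 1.000); its column medians ran from 1.82 to 1.87, and how it was centred is stated nowhere in the sources used here. Probe coordinates are the files' own (mm7).

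From the intensities, log2 values minus each array's 75th percentile were computed, control spots left out, and probes kept when well above background on all 3 arrays of a group: 24361 of 41174 probes, 16752 genes. Differences were tested with limma 3.58.1 (R 4.3.3, lmFit and eBayes, 4 group means, 8 residual degrees of freedom), with Benjamini-Hochberg adjustment over all genes, after a test on simulated data. The number of arrays limits the precision. The replicate numbers were taken to pair the arrays: the design text names 3 replicate experiments, and all 18 pairs of same-numbered arrays had deviations correlated above 0.1 (0.295 to 0.859). Named genes were the 5 at each end of the main comparisons, 3 at each end of the interaction, the isoform families, the Sdh genes and any gene that passed; 1 gene is not reported here by name. The other values singled out, among them genes without overlap between groups, the widest gaps on arrays numbered 3, Ndufaf1, Uqcrc2 and Atp5l, were chosen after their values were seen. The genes, lists and tests were chosen with earlier results of these data known. Promoters came from RefSeq (GRCm38.p6).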

Additional observations from a re-analysis of the deposited data

How the results depend on the processing

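The count of 0 of the 80 genes past the threshold held in all comparisons and alternatives but these. With the replicate block 1 passed in MyD88-null cells and 1 averaged over genotypes. The averaged count was 1 with probes well above background on all arrays, 1 with the scan day block, 1 with the slide as a fixed block (chosen after seeing the data) and 1 in the leave-one-out fits at most (0 to 1). With the slide as a random block (consensus correlation 0.593) 1 passed in MyD88-null cells and 2 averaged. Over all genes, the replicate block raised the calls from 191 to 681 in MyD88-null cells and from 527 to 1927 averaged; it changed no other call of the 80 genes.

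Of 50 named differences, 45 were run under all 26 alternatives and the 5 of Cox4i2 under all but the filter on all arrays, which it does not pass; 33 kept their sign throughout, and the cause of the others was not tested. In C57BL/6 cells Cox6b2 turned to 0.22 without the 2 arrays with conflicting descriptions and 0.53 with treatment from the descriptions, which also turned Cox4i2 (-0.10), the Cox6b2 interaction (-0.45) and the Sdhb genotype difference (-0.032). Quantile normalization turned Cox4i1 in C57BL/6 cells (-0.023), and the deposited value table turned Sdhb between genotypes (-0.016). Sdhc between genotypes was 0.026 with the slide as a random block and 0.00099 with the scan day block. With the slide as a fixed block C57BL/6 Cox4i2 was -0.12 and Ndufs8 -0.057, and between genotypes Sdha was 0.052 and Sdhc 0.012. Without the arrays numbered 3 and MyD88-null apoA-I replicate 1 (chosen after seeing the data), C57BL/6 Cox4i2 was -0.53 and Ndufs8 -0.052, the Ndufc1 interaction -0.11, averaged Atp5e -0.067, and between genotypes Sdhc was 0.027.

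With 1 array left out, the C57BL/6 differences ran from -1.06 to 0.22 for Cox6b2, -0.88 to 0.56 for Cox7c, -0.66 to 0.35 for Ndufc1, -0.55 to 0.84 for Cox4i2 and -0.082 to 0.44 for Uqcrb. The Ndufc1 interaction ran from -0.25 to 0.76, averaged Cox6b2 from -0.049 to 0.68 and Sdhd from -0.26 to 0.041. Between genotypes the ranges were -0.14 to 0.087 for Sdhc, -0.61 to 0.12 for Cox6b2, -0.055 to 0.23 for Sdhb and -0.024 to 0.25 for Sdhd. Cox4i2 is limited by signal close to background.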
